A study of Mus musculus with 9 samples.

Results

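The axon guidance ligands and receptors were the protein-coding genes of mm10 whose symbols name a semaphorin of classes 3 to 7, a plexin, a neuropilin, an ephrin, an Eph receptor, a Slit, a Robo receptor, a netrin or an Unc5 receptor. The rule took 68 of the 21900 protein-coding genes of the RefSeq annotation of GRCm38, 35 ligands and 33 receptors. It used the symbol only and no measured value. Each gene was then described by the m6A peaks within 500 bp of its gene body. The peaks came from m6A-RIP-seq of wild-type mouse embryonic stem cells (mESCs). In it an antibody bound mRNA that carries N6-methyladenosine. The bound mRNA was cut with RNase T1 on the beads, and the captured fragments were sequenced. Peak lists of the 2 wild-type immunoprecipitations, labelled replicates 1 and 2, were analysed, and the other 7 of 9 libraries, from Mettl3KO and Zc3h13KO cells and from inputs, were not analysed here. All samples carry the background that the labels give as Rosa26:CRE, Bir ligase, and the sources do not say whether it is a single clone. The cells were grown on gelatin in serum medium with LIF. Nothing in the sources says that the replicates came from separate cultures.

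Guidance molecules steer growing axons and migrating cells, and they are also used in blood vessels and epithelia. Semaphorins act mainly through plexins, with neuropilins as coreceptors for most of class 3. Ephrins bind Eph receptor tyrosine kinases on neighbouring cells and can signal back into the cell that carries them. Slits repel through Robo receptors, and netrins attract through Dcc or repel through Unc5 receptors. m6A is laid down on mRNA by the Mettl3 methyltransferase complex, most often in the sequence context GGAC, and is known to lie near stop codons and in long internal exons.

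The authors called peaks in each immunoprecipitation by itself against input with MACS2. The series holds 1 wild-type input library. If both lists were set against it, they share that input and are not separately controlled. Each peak has a fold enrichment, the ratio of immunoprecipitation to input, and a −log10 q, from a p-value adjusted for multiple testing. Replicate 1 had 22531 peaks and replicate 2 had 5040. The depth behind them is unknown, so the values of the replicates are set side by side and not compared as levels. The peaks of replicate 1 are named with the tag H4 in place of a genotype, whereas those of replicate 2 are named WT. The sample label puts both lists with the wild type and was followed, and what H4 stands for is not known here. No expression values were at hand, so a gene without a listed peak cannot be told apart from a gene that is little expressed. Of 8 stem cell markers, 5 had a peak in replicate 1 (62.5%), against 41.3% of all protein-coding genes, and none had one in replicate 2, against 16.9%. Esrrb had 7 peaks of at most 11.8-fold, while Sox2, Nanog, Zfp42 and Klf4 reached at most 2.61-fold. Pou5f1, Tfcp2l1 and Dppa5a had no listed peak, and of 6 neuronal markers Tubb3 and Rbfox3 had a peak (33.3%), each in replicate 1 only.

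Many of the guidance genes had a listed m6A peak in these cells. The peaks are calls over input and were not checked against the Mettl3KO immunoprecipitations, so their dependence on Mettl3 was not tested. A peak was listed in both replicates at 25 of 68 genes (36.8%), against 16.1% of all protein-coding genes. In replicate 1 a peak was listed at 48 guidance genes (70.6%), against 41.3% of all protein-coding genes, and in replicate 2 at 25 (36.8%), against 16.9%. Each of the 25 genes found in replicate 2 was also found in replicate 1. The other 23 genes had a peak in replicate 1 only, and 20 (29.4%) had none in either list, against 57.9% of all protein-coding genes. These shares are descriptions and were not tested. Of the 48 genes with a peak in replicate 1, 52.1% also had one in replicate 2, against 39.1% of all protein-coding genes with a peak in replicate 1.

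More ligands than receptors had a peak, a difference that was not tested. Of 35 ligands, 30 had a peak in replicate 1 (85.7%) and 15 in both replicates (42.9%), and 5 had none (14.3%). Of 33 receptors, 18 had a peak in replicate 1 (54.5%) and 10 in both (30.3%), and 15 had none (45.5%). Of all protein-coding genes, 41.3% had a peak in replicate 1, 16.1% in both and 57.9% in neither. The shares with a peak were thus above those of all genes for receptors as well as ligands. All 3 Slits and all 4 netrins had a peak in at least replicate 1. None of the 4 Unc5 receptors had a listed peak in either replicate, as was the case for 57.9% of all protein-coding genes. The receptors also had the longer gene bodies, with a median of 69.0 kb against 29.0 kb for the ligands, and the part of length or expression in this contrast was not tested.

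**Figure D1:**
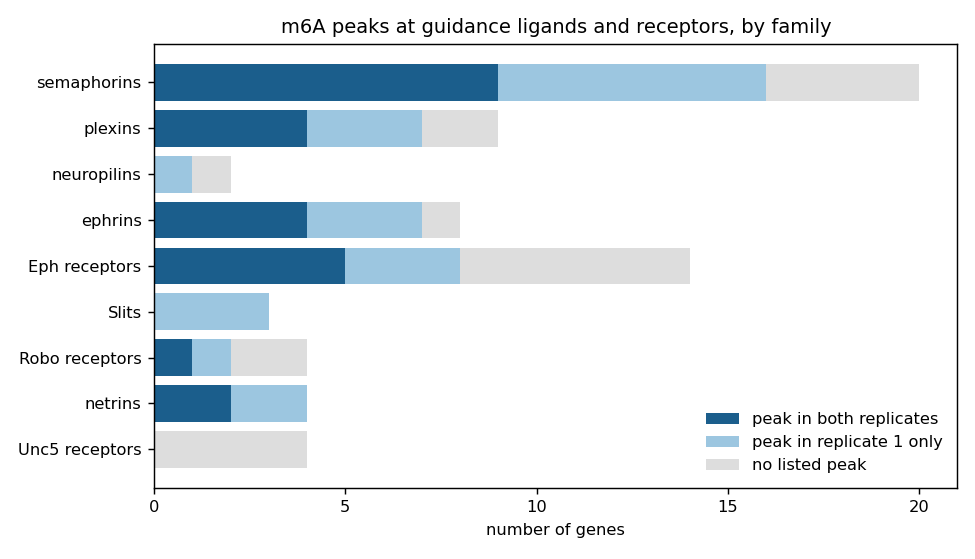
Number of guidance genes with an m6A peak within 500 bp of the gene body, by family. Dark bars count genes found in both lists, light bars those in replicate 1 only and grey bars those in neither. Semaphorins had 9, 7 and 4 of these, and the 4 Unc5 receptors are all grey.

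Some peaks overlapped the window around an annotated start of the transcript, where sequence was at hand. RefSeq promoter windows of GRCm38.p6, which run from 250 bp before to 50 bp after a start, were matched to 59 of the 68 genes and gave 75 windows. A peak of replicate 1 overlapped 15 of these windows (20%), at 14 genes, against 6.51% of all 32851 windows. Only the peaks at Sema4b and Slit3 had their summit inside the window. A peak of replicate 2 overlapped 1 window (1.33%), that of Ephb3, against 0.88% of all windows. These shares also count windows of genes without any peak. In replicate 1, 70.6% of guidance genes had a peak, against 41.3% of all protein-coding genes. Of the summits in replicate 1, 9.79% at guidance genes lay within 1000 bp of the 5′ end, against 11.6% at all protein-coding genes. The windows of 5 genes are shown for what their peaks did. Ephb3 had a peak there in both replicates, Plxna2 had the highest fold enrichment, Efnb2 has its single GGAC after the start, and Sema4b and Slit3 had their summits before the start. Each is given 5′ to 3′ on the strand of the gene, and the capitals mark each GGAC.
Ephb3, chr16:21204545-21204844, plus strand: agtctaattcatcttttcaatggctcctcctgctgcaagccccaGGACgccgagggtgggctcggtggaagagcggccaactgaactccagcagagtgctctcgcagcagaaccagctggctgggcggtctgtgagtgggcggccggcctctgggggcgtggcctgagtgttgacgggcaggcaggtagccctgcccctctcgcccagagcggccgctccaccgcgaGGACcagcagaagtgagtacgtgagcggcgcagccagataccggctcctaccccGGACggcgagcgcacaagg
Plxna2, chr1:194619579-194619878, plus strand: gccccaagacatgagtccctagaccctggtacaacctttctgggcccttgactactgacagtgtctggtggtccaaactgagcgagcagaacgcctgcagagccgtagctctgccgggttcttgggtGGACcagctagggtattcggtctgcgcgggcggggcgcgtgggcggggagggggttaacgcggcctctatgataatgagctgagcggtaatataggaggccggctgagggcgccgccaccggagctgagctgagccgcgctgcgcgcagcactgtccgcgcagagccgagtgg
Efnb2, chr8:8661193-8661492, minus strand: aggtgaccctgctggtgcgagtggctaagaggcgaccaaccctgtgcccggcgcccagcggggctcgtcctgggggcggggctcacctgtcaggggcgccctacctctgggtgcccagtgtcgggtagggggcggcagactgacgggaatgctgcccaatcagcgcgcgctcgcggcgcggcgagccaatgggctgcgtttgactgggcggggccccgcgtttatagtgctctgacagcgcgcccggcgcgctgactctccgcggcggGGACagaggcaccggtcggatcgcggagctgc
Sema4b, chr7:80186620-80186919, plus strand: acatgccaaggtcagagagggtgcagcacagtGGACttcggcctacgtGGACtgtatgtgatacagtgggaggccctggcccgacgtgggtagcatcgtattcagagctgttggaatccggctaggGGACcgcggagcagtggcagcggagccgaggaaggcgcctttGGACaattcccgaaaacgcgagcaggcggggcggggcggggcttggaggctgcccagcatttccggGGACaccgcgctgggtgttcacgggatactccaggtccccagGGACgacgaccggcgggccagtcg
Slit3, chr11:35121206-35121505, plus strand: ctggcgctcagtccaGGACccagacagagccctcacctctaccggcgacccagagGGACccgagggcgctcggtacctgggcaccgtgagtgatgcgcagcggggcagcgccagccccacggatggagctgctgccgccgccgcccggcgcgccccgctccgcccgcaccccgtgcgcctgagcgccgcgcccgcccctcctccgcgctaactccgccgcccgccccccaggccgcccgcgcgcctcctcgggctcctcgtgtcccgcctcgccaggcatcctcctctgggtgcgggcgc
The summit of the Ephb3 peak lay 140 bp after this start in replicate 1 and 135 bp after it in replicate 2. A GGAC of Ephb3 begins 31 bp after the start, and that of Efnb2 18 bp after it, where the summit of its peak lay 188 bp after the start. The Plxna2 window has a single GGAC, 123 bp before the start, while the summit lay 297 bp after it, outside the letters shown. At Sema4b the summit lay 152 bp before the start, in a window with 6 copies of GGAC, and at Slit3 233 bp before it, with 2 copies. GGAC on the strand of the gene was present in 61 of the 75 windows of guidance genes (81.3%), against 65.6% of all windows. The longer GGACT, which contains GGAC, was in 21 (28%), against 26.1%. On either strand, 87.7% of all windows held GGAC and 45.5% GGACT, given without the same shares of the guidance windows. All these shares count windows with and without a peak. Windows of the same gene can overlap, as those of Epha7 do, and the same letters then count more than once. Most of each window lies before its annotated start, and so outside the transcript that begins there. A match is a description of the letters and not a mapped methylation site.

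The semaphorins, secreted or membrane-bound ligands, were the largest family, with 20 genes. A peak in both replicates was listed at 9 of them, Sema3b, Sema3f, Sema4b, Sema4f, Sema4g, Sema5b, Sema6a, Sema6b and Sema6c. Sema5b, a transmembrane semaphorin with thrombospondin repeats, had 8 peaks in replicate 1 and 2 in replicate 2. Its summit nearest the 3′ end of the gene body lay 1088 bp before that end in replicate 1 and 1084 bp in replicate 2. There the fold enrichment was 10.02 in replicate 1, with a −log10 q of 207, and 16.3 in replicate 2, with 27.3, the highest of any guidance gene in replicate 2. Its other peak found in both lists lay 2900 and 2901 bp before the end, with 11.4-fold and 6.91-fold enrichment.

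The class 6 semaphorins are transmembrane ligands of class A plexins. Sema6c had a peak 1190 bp before the 3′ end with a 10.5-fold enrichment in replicate 1 and an 11.3-fold enrichment in replicate 2, at 1202 bp. Sema6a, on chromosome 18, had 4 peaks in replicate 1, with at most 12.1-fold enrichment, and 1 in replicate 2 with 9.26-fold. Sema6b had its peak nearest the 3′ end at 8.24-fold in replicate 1 and at 4.40-fold in replicate 2, with summits 389 bp apart. So these 3 genes had peaks in both lists, while the fourth gene of the class, Sema6d, had none in a gene body of 578 kb.

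Class 4 semaphorins are membrane-bound ligands, several of them best known from immune cells. Sema4f had a single peak in each list, 8.26-fold in replicate 1 and 9.41-fold in replicate 2. At Sema4g both lists held the same 2 sites, 1950 bp from the end in each replicate (5.98-fold and 5.92-fold) and 741 and 732 bp from it (3.96-fold and 3.64-fold). Sema4b had the lowest highest peak of the genes found in both lists, 3.48-fold in replicate 1 and 1.96-fold in replicate 2. Its shared peak near the 3′ end was 2.79-fold in replicate 1, with a −log10 q of 83.4, against 1.43 for its partner in replicate 2. Sema4c had 4 peaks in replicate 1 only, the strongest 9.31-fold with a −log10 q of 154, the highest value among the genes missing from replicate 2.

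Class 3 semaphorins are secreted and repel axons through neuropilin and plexin complexes. Sema3f had 10.9-fold enrichment in replicate 1 and 7.18-fold in replicate 2 at its shared peak, and Sema3b had 7.83-fold and 6.77-fold. The peak of Sema3b in replicate 1 also lies within 500 bp of Lsmem2 and may belong to either gene. Sema3c had a single peak in replicate 1, 2851 bp before the 3′ end, with 19.8-fold enrichment and a −log10 q of 111, and none in replicate 2. Sema3e also had peaks in replicate 1 only, 4 of them, with at most 11.3-fold enrichment. Sema3a, Sema3d and Sema3g had no listed peak. Sema4a, Sema4d, Sema5a and Sema7a completed the family with peaks in replicate 1 only, from 1.76-fold as the highest peak of Sema4d to 11.4-fold at Sema5a.

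Plexins are the semaphorin receptors and carry a cytoplasmic domain that acts on Ras family GTPases. A peak was listed in both replicates at 4 of 9, Plxna1, Plxna2, Plxnb1 and Plxnb2. Plxna2, on chromosome 1 from 194619791 to 194816869, had 10 peaks in replicate 1, the most of any guidance gene. Its highest, 173129 bp before the 3′ end, reached 42.4-fold with a −log10 q of 168, which placed the gene at rank 21 of the 9038 protein-coding genes with a peak in replicate 1. Replicate 2 held 1 peak at Plxna2, 6.65-fold with a −log10 q of 6.43. It overlapped another peak of replicate 1, 30.6-fold with a −log10 q of 226, with summits 4688 and 4730 bp before the end. So neither the 42.4-fold peak nor the 28.1-fold peak at the start of Plxna2 had a partner in replicate 2.

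Plxna1 had 6 peaks in replicate 1 and 1 in replicate 2, which met at 8.58-fold in replicate 1 and 5.38-fold in replicate 2. Plxnb1 had 6 peaks in replicate 1, all between 4.43-fold and 5.81-fold, and its 1 peak in replicate 2 was 6.11-fold, 1825 bp before the 3′ end. Plxnb2, a receptor of class 4 semaphorins, had 2 sites in both lists. The farther one was 5.03-fold in replicate 1 and 3.31-fold in replicate 2, and the one nearest the 3′ end 2.54-fold and 2.00-fold. Plxna4, Plxnc1 and Plxnd1 had peaks in replicate 1 only, of at most 7.13-fold, and Plxna3 and Plxnb3, both on chromosome X, had none. Of the neuropilins, Nrp2 had 8 peaks in replicate 1, from 3.63-fold to 15.8-fold, and none in replicate 2, and Nrp1 had no peak in either list.

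Ephrins, the ligands of Eph receptors, are held in the membrane by a lipid anchor in class A and by a transmembrane segment in class B. A peak was listed in both replicates at 4 of 8, Efna1, Efna2, Efnb1 and Efnb2. Efnb2, which also marks arterial vessels, had the highest −log10 q of all guidance genes, 240.4 in replicate 1, where the peak was 15.3-fold and its summit 3090 bp before the 3′ end. The overlapping peak of replicate 2 was 6.69-fold with a −log10 q of 13.1, and its summit lay 479 bp away. At Efna1 the shared peak was 8.82-fold in replicate 1 and 3.32-fold in replicate 2, with summits 624 and 625 bp before the end. At Efnb1 the summits lay 1436 and 1435 bp before the end, with 5.86-fold and 5.15-fold enrichment. At Efna2 the shared peak was 4.33-fold and 4.84-fold, 834 and 800 bp before the end. Efna4, Efna5 and Efnb3 had 1 peak each in replicate 1 only, 3.11-fold, 5.62-fold and 7.27-fold. Efna3, which lies between Efna1 and Efna4 on chromosome 3, had none.

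The Eph receptors split by gene. Among 14, Epha2, Epha8, Ephb2, Ephb3 and Ephb4 had a peak in both replicates. Ephb3 was found at 3 sites in both lists. The site at the start had 7.78-fold enrichment in replicate 1 and 8.34-fold in replicate 2. The site 1344 bp before the 3′ end in replicate 1, and 1304 bp in replicate 2, had 3.58-fold and 5.79-fold, and that at 683 and 684 bp had 3.05-fold and 11.7-fold. A further peak of replicate 1, 5.39-fold with a −log10 q of 122, had no partner in replicate 2.

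Ephb2 had 5 peaks in replicate 1. The one found in both lists was 5.61-fold in replicate 1 and 8.71-fold in replicate 2, 7130 and 7132 bp before the 3′ end. Its highest peak in replicate 1, 17.9-fold with a −log10 q of 111 and 801 bp before the end, was not listed in replicate 2. Ephb4, the receptor of Efnb2 in veins, had its shared peak 773 bp before the 3′ end in each replicate, 4.78-fold in replicate 1 and 3.80-fold in replicate 2. Epha2, known from epithelial cells, had the highest values 20911 and 20913 bp before the 3′ end, 4.05-fold and 4.27-fold. Its other shared site, 683 and 668 bp before the end, had 1.77-fold and 2.28-fold. Epha8 had 7 peaks in replicate 1, and the one that replicate 2 shared was 10.2-fold in replicate 1 and 6.65-fold in replicate 2. Epha4, Epha7 and Ephb6 had peaks in replicate 1 only. The strongest of Epha4 by −log10 q, 98.4, was 3.58-fold, and the 11.5-fold peak of Ephb6 also lies at Trpv6. The other 6 receptors, Epha1, Epha3, Epha5, Epha6, Epha10 and Ephb1, had no listed peak.

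Slits are large secreted proteins, and all 3 genes had peaks in replicate 1 but none in replicate 2. Slit3 reached 23.2-fold with a −log10 q of 129, far inside a gene body of 587 kb, 529806 bp before its 3′ end. The highest peak of Slit2 was 12.8-fold, 323191 bp before the end, and the single peak of Slit1 was 5.84-fold. Of their receptors, Robo4, which is known from endothelium, was the only Robo gene with a peak in both lists. Its shared summit lay 413 bp before the 3′ end in each replicate, with 7.67-fold enrichment in replicate 1 and 14.7-fold in replicate 2. Another peak of Robo4 in replicate 1, near its start, was 12.9-fold and had no partner. Robo1, the best studied Slit receptor, had 5 peaks in replicate 1 of at most 6.91-fold, and Robo2 and Robo3 had none.

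Netrins are secreted proteins related to laminins. Ntn1 had the most peaks in replicate 2 of all guidance genes, 5, and 9 in replicate 1. Each of the 5 overlapped a peak of replicate 1. In the order of their coordinates they were 2.48, 2.94, 2.90, 4.04 and 5.34-fold in replicate 1 and 4.65, 4.22, 3.96, 4.93 and 7.57-fold in replicate 2. The highest peak of Ntn1, 15.6-fold in replicate 1, was not in replicate 2. Ntn4 had 1 peak in each list, 6.33-fold and 6.22-fold, more than 100 kb before the 3′ end. Ntn3 had 5 peaks in replicate 1 only, up to 14.2-fold, and that highest one also lies at Tbc1d24. Ntn5 had 2, both also within 500 bp of Sec1. The repulsive netrin receptors Unc5a, Unc5b, Unc5c and Unc5d had no listed peak.

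**Figure D2:**
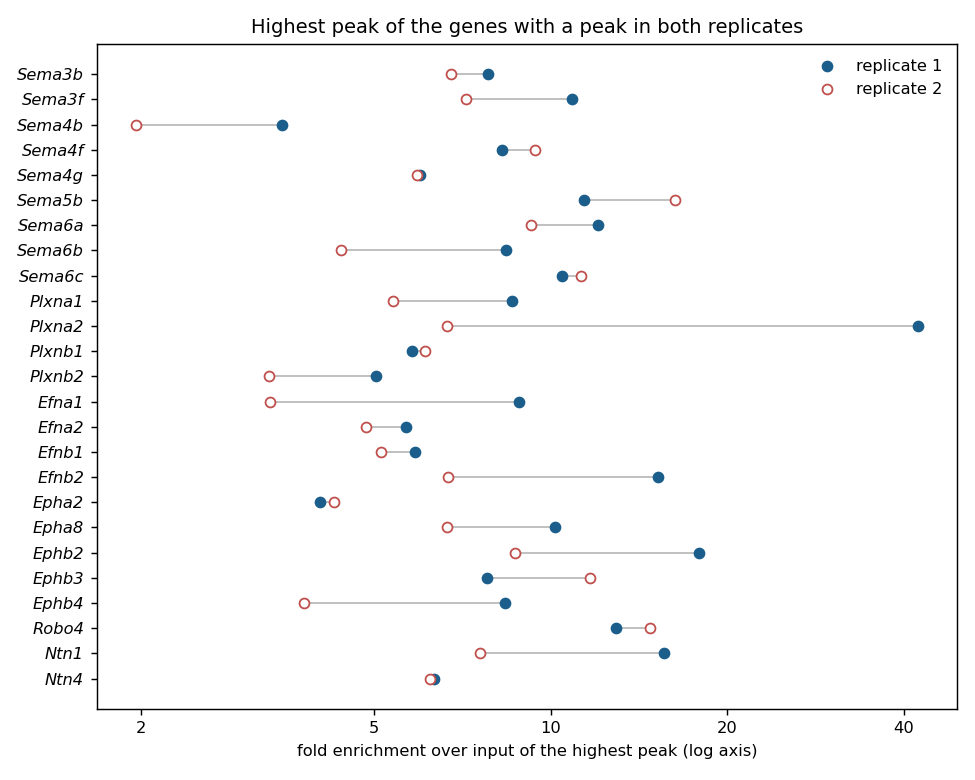
Fold enrichment over input of the highest peak, on a log axis, for each of the 25 genes found in both lists. Filled points are replicate 1 and open points replicate 2, and the values run between 1.96 and 42.4; the highest peaks of the replicates need not be the same site, as at Plxna2.

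The peaks of replicate 2 at guidance genes all had a counterpart in the longer list of replicate 1. Replicate 2 had 35 peaks at the 25 genes, and 35 of 35 shared at least 1 bp with one of replicate 1 (100%, 95% exact binomial interval 90.0% to 100%, which covers counting error only). Over all protein-coding genes this share was 92.1%. The summits of a pair lay a median of 9 bp apart, and 31 of 35 pairs lay within 100 bp. The exceptions were Efnb2, Plxnb2, Sema6a and Sema6b, at up to 483 bp. Of the 169 peaks of replicate 1, 35 overlapped one of replicate 2 (20.7%, interval 14.9% to 27.6%), close to the 20.5% over all protein-coding genes. Both shares rest on the longer list of replicate 1. With that list shortened to the size of the other by highest −log10 q, 23 of 35 guidance peaks of replicate 2 (65.7%) met one of replicate 1, against 55.6% over all protein-coding genes, and 23 of 49 of replicate 1 (46.9%) met one of replicate 2, against 49.3%.

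Peaks with a high −log10 q in replicate 1 were those most often found again, at guidance genes and at all protein-coding genes alike. Of the 22 guidance peaks with a −log10 q of at least 100, 14 had a partner in replicate 2 (63.6%), against 60.8% of such peaks at all protein-coding genes. Of the 41 with a value from 50 to 100, 16 did (39.0%), against 33.9%. Of the 43 from 20 to 50, 4 did (9.30%), against 14.5%, and of the 63 below 20, 1 did (1.59%), that of Ntn4, against 4.5%. The 8 strong peaks without a partner were at Ephb2, Ephb3, Nrp2, Ntn1, Plxna2, Sema3c, Sema4c and Slit3. Fold enrichment separated the groups less. Its median in replicate 1 was 5.86 for the peaks with a partner and 5.69 for the others, while the median −log10 q was 81.8 and 22.7. Over all protein-coding genes the same medians were 5.60 and 5.09 for fold enrichment and 74.6 and 25.1 for −log10 q. Across the 35 pairs, the fold enrichment of replicate 2 and replicate 1 had a Spearman rho of 0.60 and a Pearson r of 0.30, a description over sites that share genes and libraries.

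**Figure D3:**
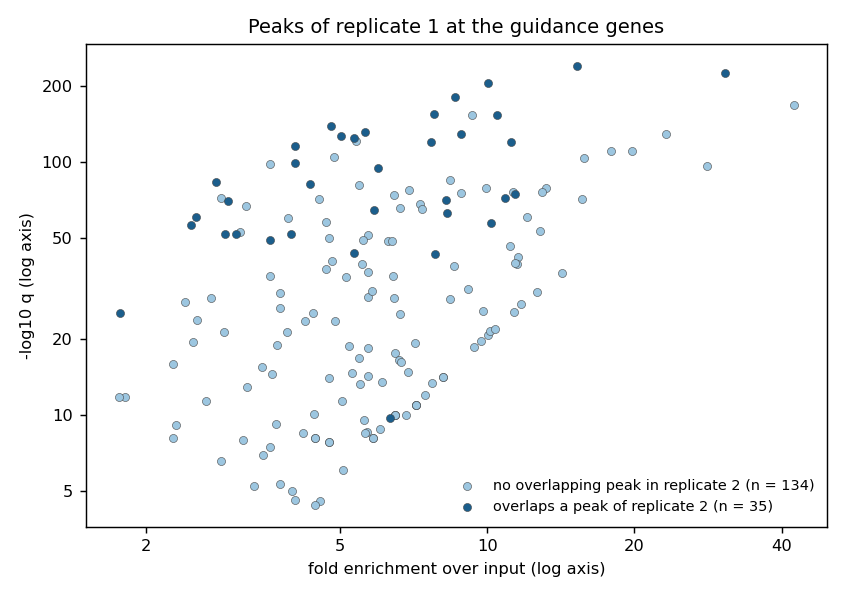
Each point is 1 of the 169 replicate 1 peaks at guidance genes, by fold enrichment over input and −log10 q, both on log axes. Dark points (n = 35) overlap a peak of replicate 2 and lie mostly above a −log10 q of 50, where 30 of 63 peaks are dark.

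The level of enrichment at guidance genes was near that of other genes, while the number of peaks per gene was higher in replicate 1 but not in replicate 2. Over the guidance peaks, the fold enrichment had a median of 5.69 in replicate 1 (quartiles 4.04 and 8.37), against 5.19 over all peaks at protein-coding genes, and 5.92 in replicate 2 (4.25 and 7.37), against 6.31. Among genes with a peak in replicate 1, the median was 3.5 peaks per guidance gene, against 2 per protein-coding gene. Of the 48 guidance genes, 24 had 4 or more peaks (50.0%), against 18.5% of all protein-coding genes with a peak. In replicate 2 the median was 1 peak for guidance genes and for all protein-coding genes, and 76.0% of the guidance genes had a single peak, against 70.9%. Guidance genes were longer than other genes, with a median gene body of 45.2 kb against 17.1 kb, and the part of length in these numbers was not tested.

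The groups of guidance genes also had different gene-body lengths, given as a description. Those with a peak in both lists had a median length of 27.4 kb, those in replicate 1 only 148 kb, and those with none 176 kb. For all protein-coding genes the medians were 23.6 kb, 27.3 kb and 12 kb. Of the 31 guidance genes of at least 100 kb, 6 had a peak in both replicates (19.4%), namely Ephb2, Ntn1, Ntn4, Plxna2, Sema5b and Sema6a. The share of all protein-coding genes of that length was 21.0%. Of the 16 genes from 20 to 100 kb, 10 did (62.5%), against 18.8%, and of the 21 shorter than 20 kb, 9 did (42.9%), against 13.4%. So the share of long guidance genes was near that of all long genes, and the shares of short and middle-sized ones were above it. The longest gene without a peak was Robo2, with 1560 kb.

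**Figure D4:**
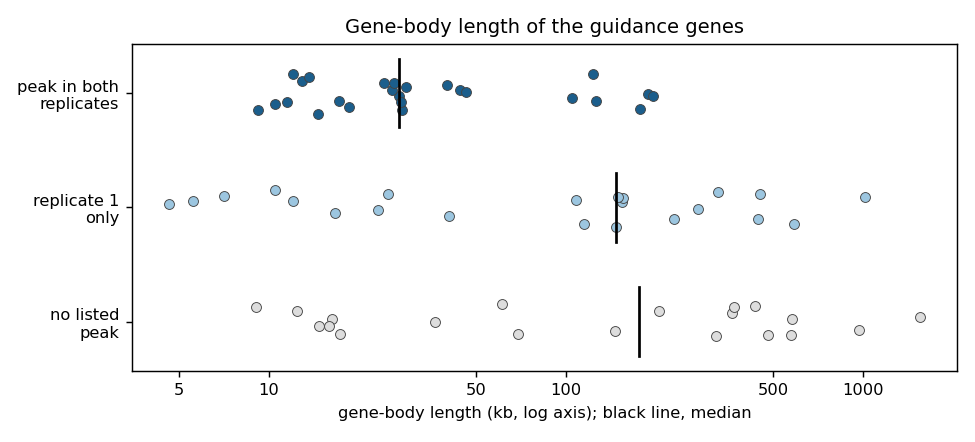
Gene-body length in kb, on a log axis, of the 68 guidance genes by where a peak was listed. Each point is a gene, with vertical scatter for visibility, and the black line is the median, at 27.4, 148 and 176 kb from top to bottom.

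The position of the summits was measured for the 59 guidance genes whose strand the promoter windows gave. In replicate 2, 9 of 26 summits lay within 1000 bp of the 3′ end of the gene body (34.6%, exact binomial interval 17.2% to 55.7%), against 24.5% of 4057 summits at protein-coding genes. In replicate 1 these were 20 of 143 (14.0%, 8.76% to 20.8%), against 14.6% of 16737. Both intervals hold the value of all genes. The share in replicate 2 changed with the minimum set on the peaks. With a −log10 q of 5 as the minimum it was 4 of 20 summits (20%), against 24.9% of all protein-coding genes, and with 4-fold as the minimum 3 of 19 (15.8%), against 23.9%, so that its place above the other genes was lost in each case. Within 5000 bp of the 3′ end lay 21 of the 26 summits of replicate 2 (80.8%), against 68.0%, and 62 of 143 in replicate 1 (43.4%), against 46.6%. Near the 5′ end, within 1000 bp, lay 14 summits of replicate 1 (9.79%) and 1 of replicate 2 (3.85%), that of Ephb3, against 11.6% and 9.0%. Exons and stop codons were not in the annotation used here, so introns count in all these distances.

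**Figure D5:**
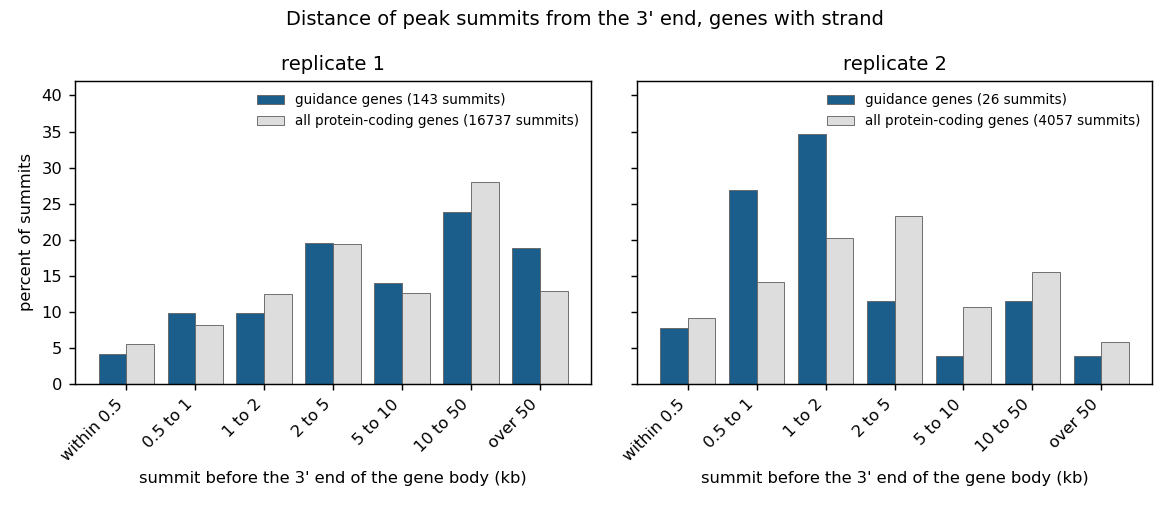
Percent of peak summits by distance before the 3′ end of the gene body, in kb, with replicate 1 on the left and replicate 2 on the right. Blue bars are guidance genes and grey bars all protein-coding genes with a known strand, the class nearest the end covers 500 bp on either side of it, and summits farther beyond the end are not drawn; in replicate 2 the tallest blue bar, 1 to 2 kb, holds 34.6%.

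Among other genes of the pathway, the share with a peak in both lists lay between that of the ligands and receptors and that of all genes, a difference that was not tested. Of 91 coreceptors, further ligands and cytoplasmic effectors listed by name, 90 were matched, and 19 had a peak in both replicates (21.1%), against 16.1% of all protein-coding genes. In replicate 1 a peak was listed at 60 of them (66.7%), near the 70.6% of guidance genes and against 41.3% of all protein-coding genes. Another 41 had a peak in replicate 1 only, 2 in replicate 2 only and 28 in neither, where 57.9% of all protein-coding genes had none. The netrin receptor Dcc had no listed peak, as the Unc5 receptors had none, and its relative Neo1 had 4 in replicate 1, up to 24.3-fold. Ranked by the lower of their values in the lists, the leading genes were Rgmb, a ligand of Neo1, with 17.1-fold in replicate 1 and 20.6-fold in replicate 2, Cntn2, an axonal adhesion molecule (17.2-fold and 11.8-fold), Dock3, a Rac exchange factor (36.9-fold and 11.6-fold), Rgma (14.5-fold and 11.5-fold) and Limk2, a kinase of cofilin (9.65-fold and 8.78-fold). The GTPases Rac1, Cdc42 and Rhoa had no listed peak.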

How the data were processed

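The authors aligned the reads and called m6A peaks with MACS2 (default parameters), each immunoprecipitation set against input and not pooled with the other. The submitters' processing notes name Bowtie, SAMtools and MACS2, with no versions, and mm10. For duplicates and strand, the handling was not given in the sources used here. The deposited values are a fold enrichment (a ratio), the −log10 values of p-value and q-value, and a score, which is 10 times the −log10 q and was not used. The depth is unknown. Binomial intervals reflect counting error alone, and peaks of a list are not replicates.

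Peaks were joined to RefSeq gene bodies of GRCm38 and assigned to every gene within 500 bp, which concerned another protein-coding gene for 6 of 169 peaks of replicate 1 and 0 of 35 of replicate 2. An overlap of 1 bp made peaks shared. Strand came from the promoter windows. No test between groups was run, since only wild-type lists were analysed. The genes and lists were chosen with earlier results of these data known. Values are given for genes with a peak in both lists and, among those in replicate 1 only, for the 5 highest by fold enrichment and by −log10 q. Other members named, and the windows printed, were picked with their values in view. Tested on simulated data, overlaps differed from an exhaustive comparison in 0 of 20 checks. The work ran in Python 3.11.15 (pandas 2.3.3, numpy 2.4.6, scipy 1.17.1, matplotlib 3.10.9).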

Additional observations from a re-analysis of the deposited data

How the results depend on the processing

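Of the guidance genes, 25 had a peak in both lists. This count became 22 where peaks needed a −log10 q of 5, 21 where they needed 4-fold enrichment, 21 with replicate 1 cut to the size of replicate 2 by highest −log10 q, 24 with peaks near a single protein-coding gene only, and 25 at 0 bp, at 2000 bp and for summits inside the gene body. The shares of all protein-coding genes were 12.8%, 11.6%, 10.7%, 13.7%, 15.4%, 17.6% and 15.3%. Efna1, Sema4b and Sema6b left at the threshold of q, Efna1, Ephb4, Plxnb2 and Sema4b at that of fold, Sema3b with single genes, and Epha8, Ntn4, Sema3b and Sema4f with the shortened list. With 1 replicate left out it ranged from 25 to 48, and for the other pathway genes from 21 to 60. The shares of all protein-coding genes were then 16.9% and 41.3%. With the shortened list, 30 guidance genes had a peak in replicate 1, a count given without a share of all protein-coding genes. The median fold enrichment there was 7.78, and 46.9% of the guidance peaks were shared, against 49.3% over all protein-coding genes. With 4-fold as the minimum the medians were by construction higher, 6.62 in replicate 1 and 6.65 in replicate 2, and the threshold of q also gave 6.65 in replicate 2, where the cause was not tested. The share of replicate 2 peaks found in replicate 1 was 82.9% when 50% of both peaks had to overlap, 88.6% for summits within 100 bp, 85.2% with 4-fold as the minimum and 65.7% with the shortened list. Over all protein-coding genes it was 68.0% with 4-fold as the minimum and 55.6% with the shortened list. The shares for a 50% overlap and for summits within 100 bp are given without one of all protein-coding genes. Summits within 500 bp of the 3′ end were 4.2% in replicate 1 and 7.69% in replicate 2, against about 5.6% and 9.1% over all protein-coding genes. Those within 2000 bp were 23.8% and 69.2%, where the comparison with all protein-coding genes is given by class of distance. From 500 to 1000 bp before the end lay 9.79% in replicate 1, against 8.19%, and 26.9% in replicate 2, against 14.1%. From 1000 to 2000 bp lay 9.79%, against 12.5%, and 34.6%, against 20.2%. These differences were not tested. Within 1000 bp in replicate 2, the share was 15.8% with 4-fold as the minimum, against 23.9%. At the threshold of q it was 20%, against 24.9%, and the cause of these changes was not tested. No paired analysis was possible because only wild-type immunoprecipitations were analysed. The motif result in peaks was not run for want of peak sequence. What depth limits could not be measured.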

Other observations

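Of the 20 guidance genes with no listed peak, none gained one within 2000 bp. The nearest was at Robo3, 2176 bp from a peak of replicate 1 and 2167 bp from one of replicate 2, both of which lie at the 3′ end of its neighbour Robo4. Unc5c lay 5130 bp from a peak of replicate 1 at Bmpr1b, and Sema3g 7561 bp from one at Phf7. Sema3a and Sema3d, on chromosome 5 as Sema3e is, had the start peak of Sema3e as their nearest in replicate 1, 421680 and 1436212 bp away.

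Summits of 3 peaks of replicate 1 lay outside the gene body, each before the start, at Sema4b, Slit3 and Epha4. That of Epha4 lay 1044 bp before the start, with an 11.7-fold enrichment, the highest of its 6 peaks, and a −log10 q of 27.6.

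Many peaks carry exactly the same pair of fold enrichment and −log10 q as another peak of their list. This held for 79 of the 169 guidance peaks in replicate 1 (46.7%), against 46.5% of all its peaks, and for 19 of 35 in replicate 2 (54.3%), against 61.7%. The start peaks of Ntn3 and Plxnc1, on different chromosomes, both read 7.13-fold with a −log10 q of 11.0.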
